A study of Mus musculus with 12 samples.

Results

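The kidney genes for phosphate and calcium transport, with klotho and the vitamin D receptor, were followed in young mice that lack fat tissue. The set held 10 genes of the 19938 tested: the phosphate transporters Slc34a1 and Slc34a3, klotho (Kl) and its receptor partner Fgfr1, the vitamin D receptor Vdr, the calcium channels Trpv5 and Trpv6, the calcium-binding proteins Calb1 and S100g, and the calcium-sensing receptor Casr. Each was read by the single probe set whose platform annotation gives that symbol alone. Whole kidneys of 3-week-old mice were measured on 12 arrays in 4 groups of 3. PpargΔ/Δ mice, which lack the nuclear receptor PPARγ that drives fat cell formation, and their controls were of a mixed C57BL6/SV129 background. AZIP mice carry a transgene that blocks fat tissue development, and they were set against FVB controls of their own background. RNA of 3 mice was pooled for every array, so the spread between arrays is that between pools, and nothing in the labels pairs pools across groups. The labels give neither the part of Pparg that is deleted, nor the promoter of the transgene, nor sex or time of day. The Pparg probe set was not lower in PpargΔ/Δ (0.11 ± 0.058 on the log2 scale, limma adjusted p = 0.339), so it does not check the genotype, and the groups rest on the labels.

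As background, the proximal tubule takes phosphate back from the filtrate through the sodium-coupled transporters that Slc34a1 and Slc34a3 encode. FGF23, a hormone from bone, lowers this uptake and the making of active vitamin D by binding FGF receptors together with klotho, while parathyroid hormone lowers phosphate uptake and raises vitamin D activation. Calcium is taken back across the cells of the distal convoluted and connecting tubule: it enters through TRPV5 and TRPV6, is carried by the calbindins made from Calb1 and S100g, and leaves by a pump and an exchanger. Vitamin D, acting through its receptor, is known to raise several genes of this calcium route.

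Slc34a3, Kl and Vdr were lower and S100g was higher in both fat-deficient lines, with no overlap between mutant and control arrays in either. Such separation was common, being found for 26.1% of all genes in PpargΔ/Δ and 22.5% in AZIP. In both lines and in the same direction it was found for 9.58% of all genes. The differences of Slc34a3, Kl, Vdr and S100g were small, from 1.09-fold to 1.44-fold. Of the 2 mutant comparisons, that of AZIP had members past the threshold, a limma adjusted p under 0.05 over all genes, with a fall of Slc34a3 and a rise of S100g. All values are log2 intensities normalized by RMA, so a difference of 1 is a doubling. Slc34a1, which encodes the other renal phosphate transporter of this family, was within 0.05 of its controls in both lines. The difference between the 2 lines was tested for every member and passed for none, as given below.

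For these 4 members the sequence just before the start site, where transcription factors often bind, is shown from RefSeq (GRCm38.p6), 5′ to 3′ on the strand of the gene. RefSeq's promoter table held 8 of the 10 members. The stretches are chr2:25234271-25234484 (minus strand) for Slc34a3, chr5:150952357-150952606 (plus) for Kl, chr15:97908297-97908546 (minus) for Vdr and chrX:162964600-162964849 (minus) for S100g. Capitals mark matches, on either strand, to short motifs: the CCAAT box, the GC box (GGGCGG) and the nuclear receptor site (AGGTCA).
Slc34a3: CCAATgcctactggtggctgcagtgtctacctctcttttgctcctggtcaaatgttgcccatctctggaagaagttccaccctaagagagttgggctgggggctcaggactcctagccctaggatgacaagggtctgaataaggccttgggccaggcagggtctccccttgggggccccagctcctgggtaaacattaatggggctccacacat
Kl: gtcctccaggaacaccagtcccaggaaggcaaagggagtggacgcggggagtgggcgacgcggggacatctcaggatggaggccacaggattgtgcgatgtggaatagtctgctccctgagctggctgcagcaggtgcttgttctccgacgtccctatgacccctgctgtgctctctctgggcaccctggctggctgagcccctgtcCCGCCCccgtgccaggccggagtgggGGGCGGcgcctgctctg
Vdr: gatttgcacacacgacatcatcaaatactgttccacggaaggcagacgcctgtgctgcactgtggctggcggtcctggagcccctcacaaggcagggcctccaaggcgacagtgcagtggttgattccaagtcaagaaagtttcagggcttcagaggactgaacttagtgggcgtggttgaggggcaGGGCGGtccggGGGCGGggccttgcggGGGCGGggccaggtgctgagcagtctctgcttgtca
S100g: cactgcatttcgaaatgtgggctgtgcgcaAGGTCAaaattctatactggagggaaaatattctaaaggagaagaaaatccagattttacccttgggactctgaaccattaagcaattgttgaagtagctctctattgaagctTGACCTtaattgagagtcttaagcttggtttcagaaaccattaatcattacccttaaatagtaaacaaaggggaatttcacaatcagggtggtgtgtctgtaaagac
The search covered the 250 bases before the start site. Kl had 2 and Vdr 3 matches to the GC box, which 32.7% of 32851 promoters of this length hold. S100g and Slc34a3 each had 2 matches to AGGTCA, a core sequence bound by nuclear receptors and present in 14% of promoters, and Slc34a3 had 1 to CCAAT (33.8%). Those of Slc34a3 begin 33 and 6 bases before the start site, past the end of the printed stretch, which stops where the annotated gene begins. Trpv6 also had 2 matches to AGGTCA, and its groups overlapped in both comparisons. Direct repeats of AGGTCA or of AGTTCA with 3 bases between, the arrangement that the vitamin D receptor prefers, and of AGGTCA with 1 base between, that of PPARs, were in none of the 8 member windows. They were in 2, 0 and 11 of all promoters. TATAAA (12.4% of promoters) and CACGTG (6.02%) had no match in the 4 stretches. Each motif was searched on its own, and matches may overlap. A match is a description of letters and not a binding site.

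The phosphate transporters gave unlike values, and the genes were not tested against each other. Slc34a3 encodes NaPi-IIc, the sodium-phosphate cotransporter of the proximal tubule that is abundant in young animals. Its log2 level was 10.61, 10.79 and 10.56 in PpargΔ/Δ and 11.15, 11.00 and 10.93 in mixed controls. All mutant pools lay below all control pools, by a mean of -0.37 ± 0.12 (SE, n = 3 pools per group; limma adjusted p = 0.0991). In AZIP it read 11.09, 10.89 and 10.50, against 11.37, 11.34 and 11.34 in FVB controls. The FVB controls were nearly equal and the AZIP pools spread over a wide range, AZIP 3 being lowest, and the mean difference was -0.53 ± 0.12, 1.44-fold lower (limma adjusted p = 0.045). That call did not hold firmly: it was lost with any array left out other than AZIP 1 (limma adjusted p from 0.0142 to 0.158 over the 12 fits). Without AZIP 3 the difference was -0.36. The PpargΔ/Δ difference passed without AZIP 3 (limma adjusted p = 0.0208), an array of the other comparison that enters the shared variance.

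Slc34a1 encodes NaPi-IIa, the other proximal phosphate cotransporter. It read 13.15, 13.18 and 13.15 in PpargΔ/Δ and 13.23, 13.15 and 13.15 in mixed controls. AZIP read 13.24, 13.15 and 13.12 and FVB controls 13.23, 13.19 and 13.24. The groups overlapped in both comparisons, with differences of -0.014 ± 0.046 (95% interval -0.11 to 0.088) and -0.049 ± 0.046 (95% interval -0.15 to 0.052). The limma adjusted p of Slc34a1 was 0.912 and 0.675. For Slc34a3 the 95% intervals were -0.64 to -0.11 in PpargΔ/Δ and -0.79 to -0.26 in AZIP. The intervals of both genes met in PpargΔ/Δ and did not meet in AZIP. The mean level of Slc34a1 was at percentile 99.9 of all genes tested, and that of Slc34a3 at 94.6. Whether the array narrows differences so near the top of its range was not tested.

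Kl encodes klotho, the co-receptor that makes FGF receptors responsive to FGF23. It read 11.94, 11.88 and 11.89 in PpargΔ/Δ and 12.06, 12.06 and 12.05 in mixed controls, so the 3 controls were nearly equal and every mutant pool lay below them. The difference was -0.15 ± 0.042 (limma adjusted p = 0.0581). In AZIP Kl read 11.78, 11.84 and 11.75, against 11.93, 11.96 and 11.92 in FVB controls. The groups again did not overlap, and the difference was the same within its error, -0.15 ± 0.042 (limma adjusted p = 0.0901). Kl was thus about 1.11-fold lower in both lines without passing the threshold in either.

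Fgfr1, which encodes a main FGF receptor paired with klotho in the kidney, read 10.02, 9.95 and 9.91 in PpargΔ/Δ and 10.10, 9.99 and 10.06 in mixed controls. AZIP read 9.90, 9.90 and 9.96 and FVB controls 9.94, 9.93 and 9.81. The groups overlapped in both comparisons, and Fgfr1 was the single member whose sign differed between them, at -0.094 ± 0.053 and 0.024 ± 0.053 (limma adjusted p = 0.356 and 0.883).

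Vdr encodes the nuclear receptor for active vitamin D. It read 11.27, 10.96 and 10.93 in PpargΔ/Δ and 11.45, 11.39 and 11.37 in mixed controls. PpargΔ/Δ 1 was close to the controls and the other two pools were well below them, with a mean difference of -0.35 ± 0.095, 1.27-fold lower (limma adjusted p = 0.055). Without PpargΔ/Δ 1 the difference was -0.46 and passed (limma adjusted p = 0.0121), and without AZIP 3 it passed as well (limma adjusted p = 0.036). In AZIP it read 11.22, 11.18 and 11.45 and in FVB controls 11.64, 11.63 and 11.48. AZIP 3 nearly reached FVB control 3, the groups did not overlap, and the difference was -0.30 ± 0.095 (limma adjusted p = 0.124). AZIP 3 thus had the lowest Slc34a3 and the highest Vdr of the 3 AZIP pools.

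The mean values of the calcium entry channels were above those of the controls in both lines, with overlapping groups and no call. Trpv5 encodes the channel that admits calcium in the distal convoluted and connecting tubule. It read 10.89, 10.78 and 11.04 in PpargΔ/Δ and 10.56, 10.63 and 10.78 in mixed controls, where the highest control and the lowest mutant met (0.24 ± 0.10, limma adjusted p = 0.19). AZIP read 9.96, 10.31 and 10.04 and FVB controls 9.84, 9.86 and 10.04, with a difference of 0.19 ± 0.10 (limma adjusted p = 0.383). Without AZIP 2, the highest pool, it was 0.089. Trpv6, a close relative that lies beside Trpv5 in the genome, read 6.77, 6.92 and 6.93 in PpargΔ/Δ and 6.57, 6.66 and 6.88 in mixed controls (0.17 ± 0.15, limma adjusted p = 0.573, with 0.10 without control 1 and 0.26 without control 3). In AZIP it read 6.40, 7.13 and 6.69, the widest spread of any member in any group, and 6.52, 6.38 and 6.29 in FVB controls (0.34 ± 0.15, limma adjusted p = 0.274). AZIP 2 carried most of this difference, since without it the value was 0.15. The mean level of Trpv6 was low, at percentile 35.5 of all genes tested.

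The mean values of both calcium-binding protein genes were above those of the controls. S100g encodes calbindin-D9k, which carries calcium through the cell. It read 12.60, 12.64 and 12.64 in PpargΔ/Δ and 12.45, 12.49 and 12.57 in mixed controls, without overlap but with the nearest pools close together (0.12 ± 0.055, limma adjusted p = 0.224). In AZIP it read 12.32, 12.39 and 12.49, all above the FVB controls at 12.12, 12.12 and 12.22. That difference was 0.25 ± 0.055, 1.19-fold higher (limma adjusted p = 0.0401), and it kept the threshold in 4 of the 12 fits with an array left out, those without PpargΔ/Δ 1, control 1, control 3 or AZIP 1 (limma adjusted p from 0.0281 to 0.159). Calb1 encodes calbindin-D28k, the calcium buffer of the same segments. It read 12.52, 12.54 and 12.53 in PpargΔ/Δ against 12.29, 12.43 and 12.52 in mixed controls (0.11 ± 0.073, limma adjusted p = 0.429). Without control 1, the lowest pool, the difference was 0.051. It read 12.22, 12.41 and 12.38 in AZIP against 12.17, 12.12 and 12.31 in FVB controls (0.14 ± 0.073, limma adjusted p = 0.392). The lowest mutant pool met the range of the controls in both lines.

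Casr encodes the receptor that senses calcium outside the cell, which the thick ascending limb uses to adjust calcium uptake. It read 10.93, 10.80 and 10.73 in PpargΔ/Δ and 10.76, 10.65 and 10.72 in mixed controls (0.11 ± 0.059, limma adjusted p = 0.314), and the difference was 0.061 without PpargΔ/Δ 1. It read 10.54, 10.62 and 10.58 in AZIP and 10.62, 10.55 and 10.48 in FVB controls (0.031 ± 0.059, limma adjusted p = 0.865). The groups overlapped in both comparisons.

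**Figure D1:**
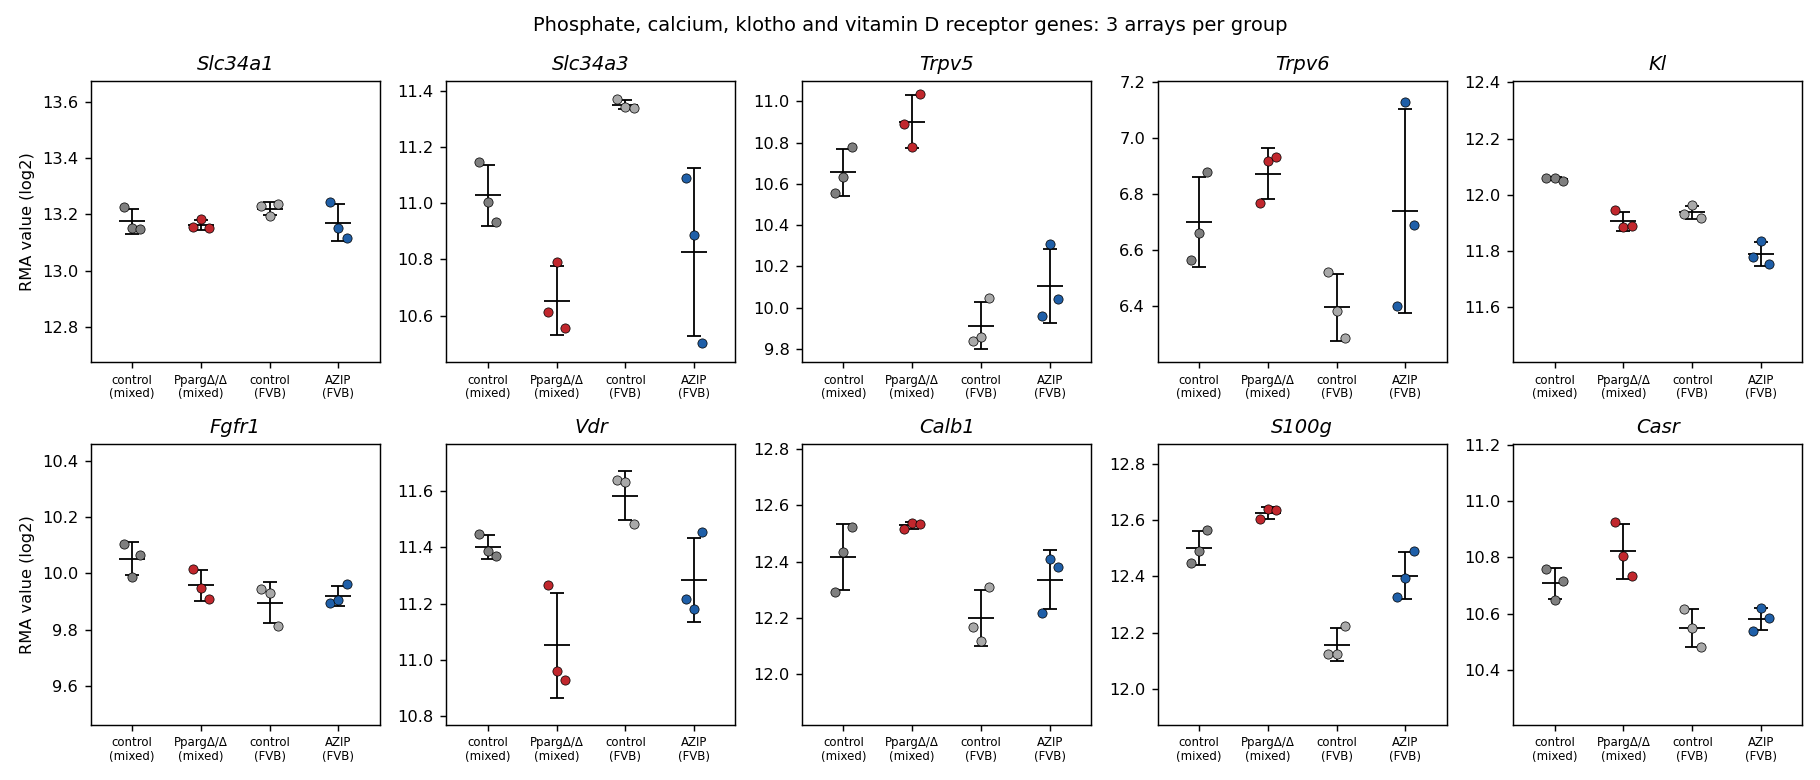
Log2 RMA value (y axis, each panel at its own level) of the 10 members in the 4 groups (x axis); points are single arrays of 3 pooled mice, horizontal bars the mean and error bars the SD of 3 arrays. Slc34a3, Kl and Vdr sit lower and S100g higher in both mutants than in the controls of the same background, and Slc34a1 stays between 13.12 and 13.24 on all arrays.

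Set against all genes, the PpargΔ/Δ comparison called 5.29% of 19938 genes (2.67% higher, 2.62% lower) and 0 of the 10 members by limma. An unadjusted limma p under 0.05 was found for 5 members and for 4069 of the 19938 genes. Groups without overlap were found for 26.1% of all genes and for 4 of the 10 members, 1 higher and 3 lower. The AZIP comparison called 2.43% of all genes (1.30% higher, 1.13% lower) and 2 of the 10 members. There 5 members and 3267 of the 19938 genes had an unadjusted limma p under 0.05. In it 22.5% of all genes and 4 of the 10 members did not overlap, again 1 higher and 3 lower. Counts at an unadjusted p in the lists below have these counts over all genes beside them. The median member difference was 0.050 in PpargΔ/Δ and 0.028 in AZIP, against -0.0089 and 0.0028 over all genes, since rises and falls within the set offset each other. The sign was the same in both comparisons, which share no array, for 9 of 10 members and for 65.5% of all genes. Slc34a3, Kl, Vdr and S100g were separated the same way in both, as were 9.58% of all genes. These members were chosen with earlier results of the same arrays known, so the shares describe them and test nothing.

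No member passed the test of a difference between the lines. The contrast of the 2 effects called 0.0201% of all genes (0.0100% higher and 0.0100% lower) and 0 of the 10 members by limma, with 0 members at an unadjusted p under 0.05. The largest such difference was that of Trpv6, -0.17 (95% interval -0.63 to 0.29), and for S100g it was -0.12 (95% interval -0.29 to 0.046), for Slc34a3 0.15 (95% interval -0.22 to 0.52) and for Vdr -0.049 (95% interval -0.34 to 0.24). For Kl it was -0.0037 (95% interval -0.13 to 0.13). Each of these intervals includes 0, and differences between the lines within these bounds remain possible.

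The mean of the 2 effects, a contrast added after the separate comparisons had been seen, used all 12 arrays for each value. It called 12.6% of all genes (6.29% higher and 6.29% lower) and 4 of the 10 members. Slc34a3 fell by 0.45 (SE 0.085, limma adjusted p = 0.00634), Kl by 0.15 (SE 0.030, limma adjusted p = 0.0076) and Vdr by 0.33 (SE 0.067, limma adjusted p = 0.00896). S100g rose by 0.19 (SE 0.039, limma adjusted p = 0.00948). These are the 4 members already seen to be separated in both lines, so the contrast adds precision and not independent support. Trpv5 stood at 0.22 ± 0.070 (limma adjusted p = 0.0656), Trpv6 at 0.26 ± 0.10 (0.14), Calb1 at 0.12 ± 0.051 (0.143), Casr at 0.072 ± 0.042 (0.311), Fgfr1 at -0.035 ± 0.038 (0.629) and Slc34a1 at -0.031 ± 0.033 (0.613). All 4 calls held in each of the 12 fits with an array left out, with a limma adjusted p of at most 0.0286 over these and the other refits.

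**Figure D2:**
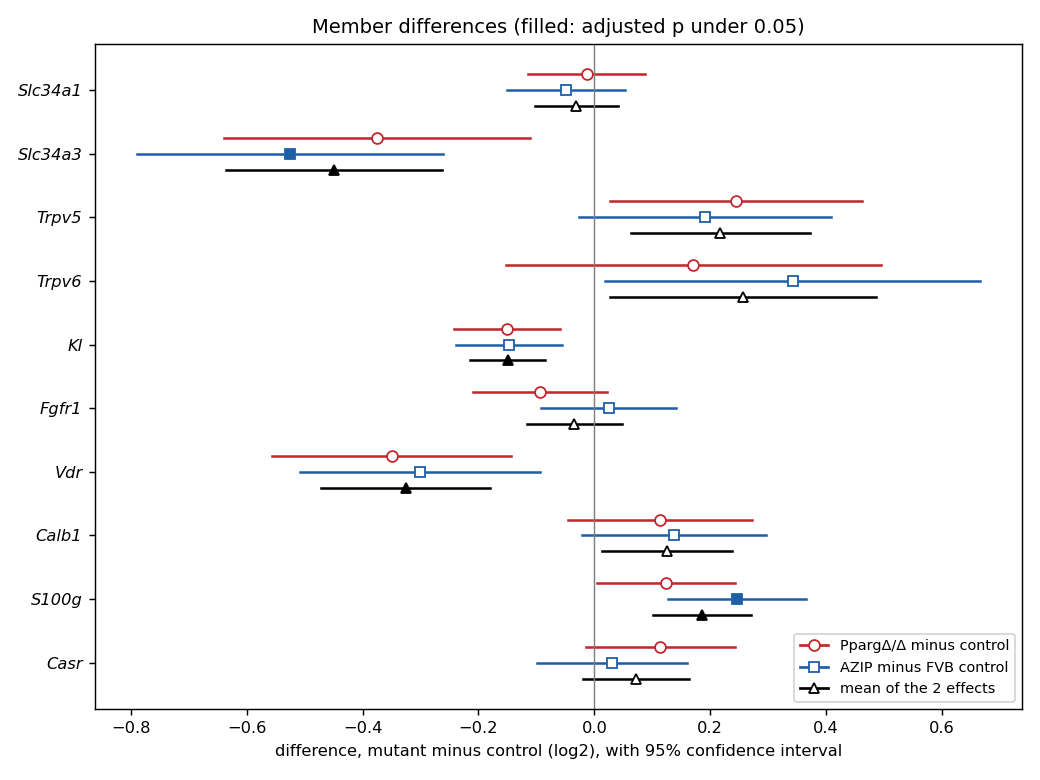
Difference of each member, mutant minus control in log2 (x axis), for PpargΔ/Δ (circles), AZIP (squares) and the mean of the 2 effects (triangles); lines are 95% confidence intervals from limma and filled symbols passed an adjusted p under 0.05. Slc34a3 and S100g are filled for AZIP, and Slc34a3, Kl, Vdr and S100g for the mean.

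**Figure D3:**
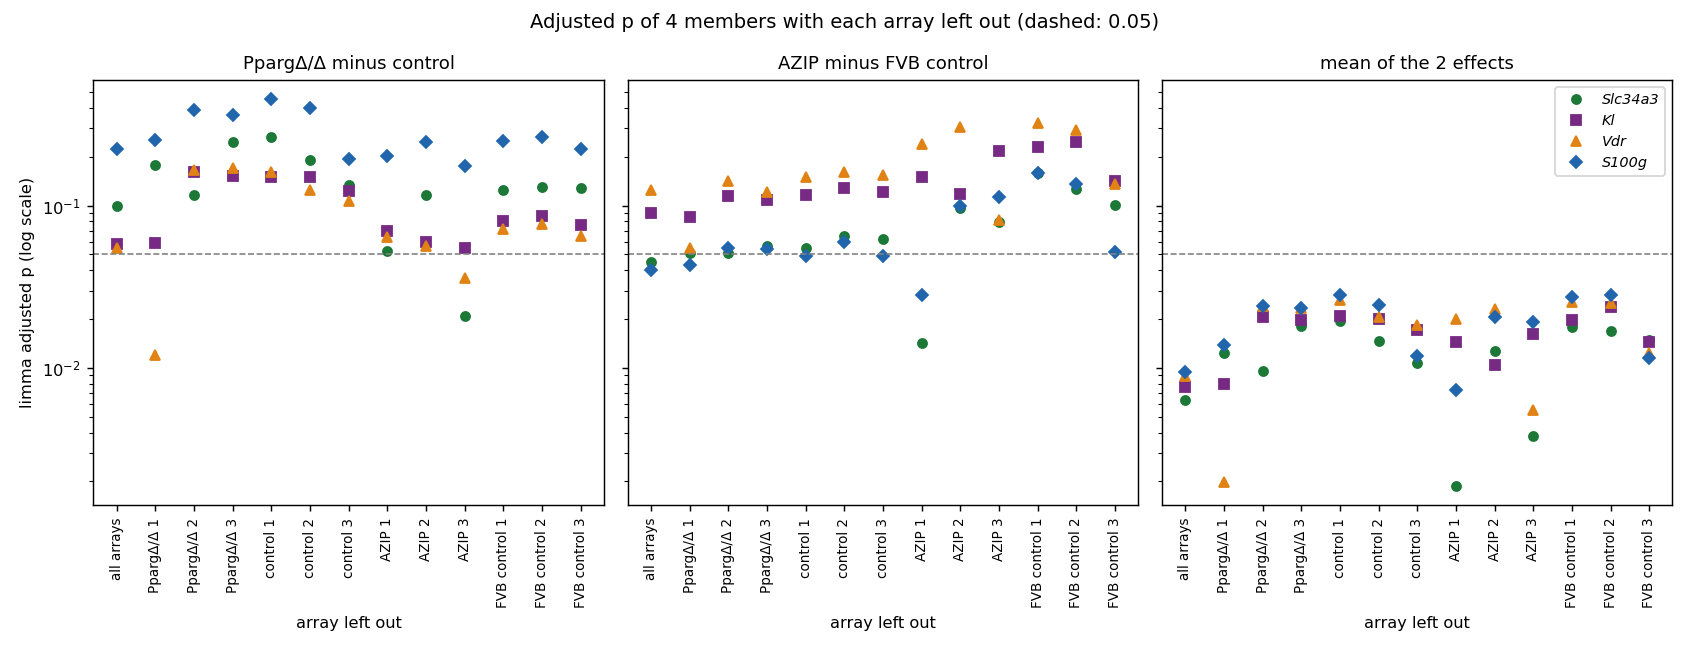
Limma adjusted p (y axis, log scale) of Slc34a3, Kl, Vdr and S100g with all arrays and with each array left out (x axis), in 3 panels for PpargΔ/Δ, AZIP and the mean of the 2 effects; the dashed line is 0.05. In the single comparisons the points lie on both sides of the line or above it, and in the panel of the mean all lie below it.

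The control groups of the 2 backgrounds differed in Trpv5 and S100g, both lower in FVB. They differed in 7.22% of all genes (3.50% higher in FVB, 3.72% lower) and in 2 of the 10 members, and their arrays did not overlap for 28.5% of all genes and 8 of the 10 members, 2 higher and 6 lower in FVB. Trpv5 was 1.67-fold lower in FVB controls (-0.74 ± 0.10, limma adjusted p = 0.000899), and even the highest AZIP pool, at 10.31, lay below the lowest mixed control, at 10.56. S100g was lower by -0.35 ± 0.055 (limma adjusted p = 0.00251), and AZIP, between 12.32 and 12.49, overlapped with the mixed controls. The order of Trpv5 and of S100g was the same, FVB controls lowest, then AZIP, mixed controls and PpargΔ/Δ highest. Calb1 (-0.22 ± 0.073) and Trpv6 (-0.30 ± 0.15) leaned the same way without passing (limma adjusted p = 0.106 and 0.288). So did Kl (-0.12 ± 0.042), Fgfr1 (-0.16 ± 0.053) and Casr (-0.16 ± 0.059), with limma adjusted p = 0.121, 0.112 and 0.149. Apart from Calb1, the control groups did not overlap for these genes. The difference was below 0 for 7 of the 10 members and above 0 for 3. Slc34a3 (0.32 ± 0.12) and Vdr (0.18 ± 0.095) leaned the other way, without overlap between the control groups and without passing (limma adjusted p = 0.149 and 0.321), with FVB controls highest and PpargΔ/Δ lowest of the 4 groups. The difference was also below 0 for most markers of distal segments, and for 8655 of all 19938 genes. Intercalated cell markers were below 0 for 8 of 8 genes with no overlap, 4 of them past the threshold (median -0.295, summed log2 level 13.16 to 13.19 against 13.49 to 13.56). Connecting tubule markers other than members were below 0 for 5 of 6 genes (median -0.18), with 1 higher and 0 lower past the threshold by limma. Their sums overlapped, and 5 had an unadjusted p under 0.05, as had 3935 of all 19938 genes. Distal convoluted tubule markers were below 0 for 6 of 8, with 1 lower past the threshold (median -0.082, sums 13.68 to 13.73 against 13.80 to 13.86). Proximal tubule markers were above 0 for 13 of 15, with 1 higher past the threshold (median 0.11). The part of these shifts in the differences of the members was not tested, and a difference of expression and a strain difference in the probed sequence cannot be told apart. This comparison shares its control arrays with the other two.

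Among the other genes of phosphate handling, 7 of 9 were measured. Pdzk1, a scaffold protein that holds phosphate transporters in the brush border, fell in PpargΔ/Δ. It read 11.46, 11.44 and 11.33 against 11.75, 11.62 and 11.64 in mixed controls, with no overlap (-0.26 ± 0.051, limma adjusted p = 0.0165). The call was lost without control 1 (0.0712) or PpargΔ/Δ 3 (0.0607), and in AZIP Pdzk1 was at -0.13 ± 0.051 (limma adjusted p = 0.206). It was the single gene of the 7 that passed in PpargΔ/Δ, and 0 passed in AZIP by limma, with 1 at an unadjusted p under 0.05. Slc34a2, which encodes the third member of the transporter family, was at 0.47 (limma adjusted p = 0.0566) in PpargΔ/Δ and 0.051 (0.901) in AZIP. The widely expressed phosphate carriers Slc20a1 and Slc20a2 were at 0.060 and 0.10 in PpargΔ/Δ and at -0.0025 and 0.059 in AZIP, with limma adjusted p between 0.434 and 0.994.

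Of the FGF23, klotho and parathyroid hormone list, 18 of 22 genes were measured, with 1 higher and 1 lower in PpargΔ/Δ and 0 higher and 2 lower in AZIP. Fgfr3, an FGF receptor that klotho can also partner, fell in PpargΔ/Δ, where it read 9.36, 9.49 and 9.58 against 9.94, 9.86 and 9.76 (-0.38 ± 0.071, limma adjusted p = 0.0134, and 0.0625 without control 1). In AZIP it was at -0.23 ± 0.071 (limma adjusted p = 0.111). Fgfr4, the receptor that acts with klotho or its relative β-klotho, fell in AZIP, where it read 9.16, 9.10 and 8.96 against 9.56, 9.44 and 9.31 (-0.36 ± 0.074, limma adjusted p = 0.03), and was at -0.19 ± 0.074 in PpargΔ/Δ (0.177). That call was lost without AZIP 2 or 3 or FVB control 1 or 2 (limma adjusted p up to 0.13). Neither receptor passed the test of a difference between the lines (-0.14 ± 0.10 and 0.18 ± 0.10, limma adjusted p = 0.912 for Fgfr3 and 0.881 for Fgfr4).

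Lctl, a klotho-like gene with a low mean level (percentile 32.1 of all genes tested), fell in AZIP (-0.38 ± 0.076, limma adjusted p = 0.0282). It read 6.37, 6.36 and 6.16 in AZIP against 6.64, 6.77 and 6.62 in FVB controls. It kept that call in 7 of the 12 fits with an array left out and was lost without AZIP 2 or 3 or any FVB control (limma adjusted p up to 0.112). Egr1, an early response gene that FGF23 signalling and many other stimuli induce, rose in PpargΔ/Δ just inside the threshold (0.49 ± 0.13, limma adjusted p = 0.0496). Its call was lost in 8 of the 12 fits with an array left out, those without PpargΔ/Δ 2 or 3, a mixed control or an FVB control (limma adjusted p up to 0.161). Pth1r, the parathyroid hormone receptor, was at -0.12 in PpargΔ/Δ and -0.14 in AZIP (limma adjusted p = 0.322 and 0.337). Fgf23 itself, a bone hormone, was at 0.066 and -0.098 (0.768 and 0.692), and Klb, which encodes β-klotho, at -0.056 and 0.053 (0.727 and 0.793). The mean levels of Fgf23 and Klb were low, at percentiles 27.4 and 18.8.

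Cyp27b1, the proximal tubule enzyme that makes active vitamin D, had the largest difference of the vitamin D list, of which 15 of 18 genes were measured. It read 10.95, 11.49 and 11.63 in PpargΔ/Δ against 10.45, 10.39 and 10.33 in mixed controls. All mutant pools lay above the controls, by 0.97 ± 0.25, 1.95-fold, and the limma adjusted p of 0.0501 just missed the threshold. It passed under 11 of 25 alternatives, a threshold of 0.10 among them (limma adjusted p from 0.00842 to 0.158). In AZIP it read 11.09, 10.74 and 9.87 against 9.81, 9.56 and 9.89, with AZIP 3 inside the range of the controls (0.82 ± 0.25, limma adjusted p = 0.121). Without AZIP 3 the AZIP difference was 1.17 and passed (limma adjusted p = 0.0184). AZIP 3, the pool with the lowest Slc34a3, thus had the lowest Cyp27b1 of the AZIP group. No gene of this list passed by limma in either comparison, with 3 and 6 at an unadjusted p under 0.05 in PpargΔ/Δ and AZIP. Lrp2 and Cubn, the receptors that take filtered vitamin D and its carrier into the proximal tubule, were at -0.14 and -0.18 in PpargΔ/Δ (limma adjusted p = 0.115 and 0.0649) and at -0.14 and -0.12 in AZIP (0.138 and 0.243). Rxra, the partner of the vitamin D receptor on DNA, was at 0.096 and -0.023 (0.565 and 0.934). Cyp24a1, which breaks active vitamin D down, and its carrier Gc were not analysed here, having no probe set of a single symbol.

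Of the list of calcium transport across the cell 13 of 16 genes were measured, and Anxa2 alone passed, with a rise in both lines. Anxa2 encodes annexin A2, part of a complex that brings TRPV5 and TRPV6 to the membrane, and it read 10.36, 10.52 and 10.53 in PpargΔ/Δ against 10.03, 10.21 and 10.14 (0.35 ± 0.069, limma adjusted p = 0.0165). In AZIP it read 10.30, 10.51 and 10.38 against 10.13, 10.11 and 10.06 (0.30 ± 0.069, limma adjusted p = 0.0474). The PpargΔ/Δ call was lost without PpargΔ/Δ 2 or 3 or control 1 (limma adjusted p up to 0.0725), and the AZIP call kept the threshold in 3 of the 12 fits, those without PpargΔ/Δ 1, control 1 or AZIP 1 (0.0329 to 0.144). Atp2b1, a calcium pump of the outer membrane, was at 0.010 and 0.0010, and the sodium-calcium exchanger Slc8a1 at -0.0017 and -0.12 (limma adjusted p of 0.748 or more). The paracellular and thick limb list had 0 of 11 measured genes past the threshold in both comparisons by limma, with 2 and 0 at an unadjusted p under 0.05. In it Umod (-0.025 and -0.014), the calcium pore claudin Cldn16 (0.10 and -0.030) and Cldn14, a claudin that the calcium-sensing receptor controls (-0.099 and -0.11), had limma adjusted p between 0.365 and 0.934. In the magnesium list, with 13 of 14 measured, Egf, which encodes the growth factor that stimulates the magnesium channel TRPM6, fell in PpargΔ/Δ (-0.26 ± 0.060, limma adjusted p = 0.0321) and was at -0.13 in AZIP (0.324). Egf lost the call without PpargΔ/Δ 2 or 3 or any mixed control (limma adjusted p up to 0.104). Trpm6 was at 0.019 and -0.10 (0.93 and 0.61) and Pvalb, a calcium buffer of the distal convoluted tubule, at -0.14 and -0.089 (0.567 and 0.795). Over the 6 lists together 2 of 77 genes rose and 3 fell in PpargΔ/Δ, 6.49% in all, and 1 rose and 2 fell in AZIP, 3.9%, against 5.29% and 2.43% of all genes.

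**Figure D4:**
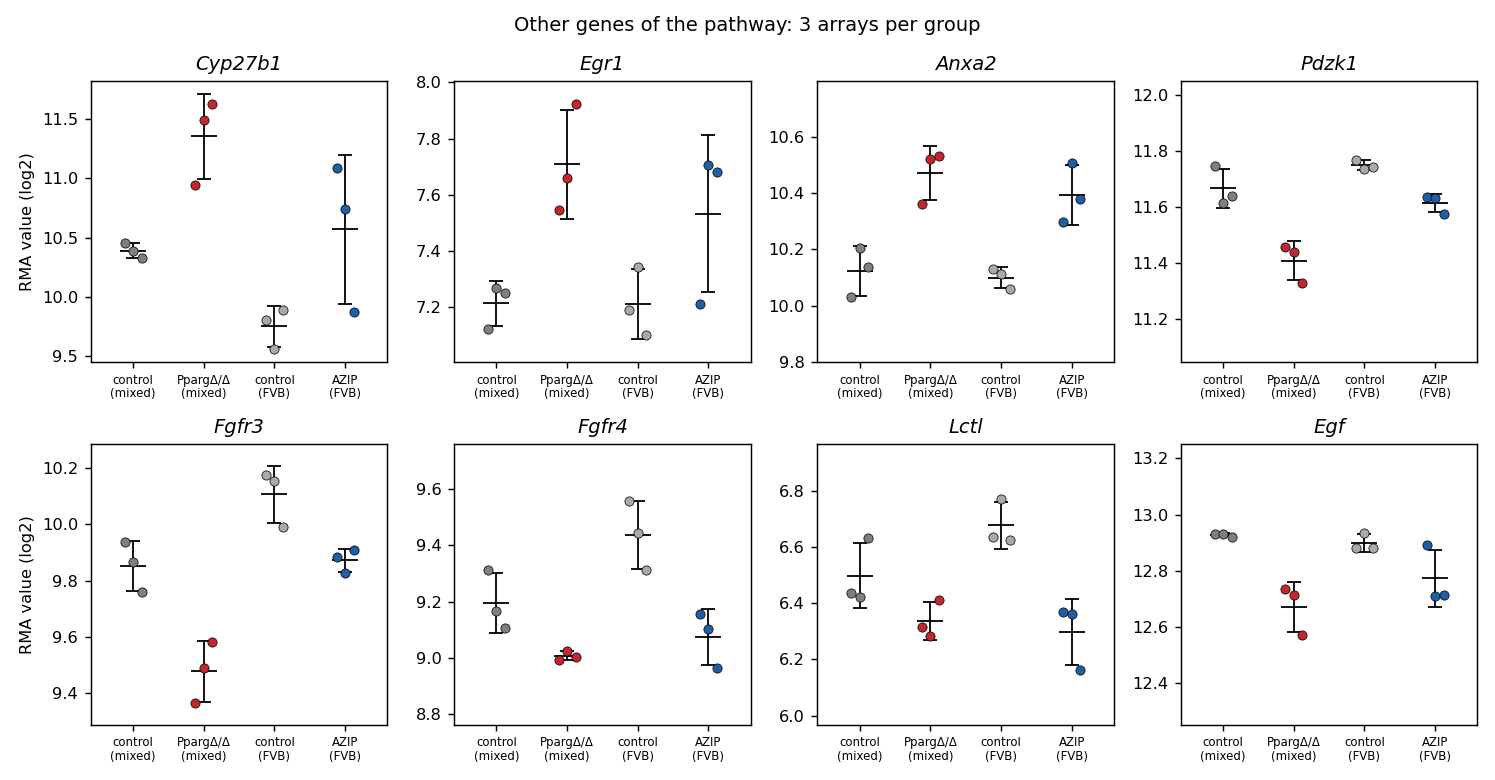
Log2 RMA value (y axis, each panel at its own level) of Cyp27b1 and of the 7 genes of the pathway lists past an adjusted p under 0.05 in either comparison, in the 4 groups (x axis); points are arrays, bars the mean and error bars the SD of 3 arrays. Cyp27b1 lies between 10.95 and 11.63 in PpargΔ/Δ and between 10.33 and 10.45 in its controls, and AZIP 3, at 9.87, falls among the FVB controls.

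Markers of the cells that express these genes were set beside them. Proximal tubule markers, the segment of Slc34a1, Slc34a3 and Cyp27b1, were below 0 for 13 of 15 genes in PpargΔ/Δ (median -0.14). In AZIP 14 of 15 were below 0 (median -0.14). By limma 0 of them passed in either line, with 6 and 8 at an unadjusted p under 0.05. Over all 19938 genes those counts were 4069 and 3267, and 10600 and 9755 genes were below 0. Lrp2 and Cubn are in both this list and that of vitamin D. The summed level of the 15 markers, in log2, ranged from 16.05 to 16.15 in PpargΔ/Δ and from 16.18 to 16.29 in mixed controls, and from 16.18 to 16.29 in AZIP and 16.35 to 16.37 in FVB controls, so the groups did not overlap. In whole kidney, fewer cells of a type and less RNA per cell cannot be told apart, and the part of this shift in the falls of Slc34a3, Kl and Vdr was not tested. Kl and Vdr were not assigned to a single segment here. Slc34a3 was at -0.37 and -0.53 in PpargΔ/Δ and AZIP, Slc34a1 at -0.014 and -0.049, and Cyp27b1 at 0.97 and 0.82. Cyp27b1 passed in neither line, and its groups overlapped in AZIP. Pdzk1, the brush border scaffold, was at -0.26 and -0.13.

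The calcium genes have their own segment markers. Distal convoluted tubule markers had 0 of 8 genes past the threshold by limma in both comparisons, with 0 at an unadjusted p under 0.05, medians of 0.039 and -0.029, and summed levels that overlapped. Connecting tubule markers other than members, 6 of 7 measured, had medians of -0.00058 and 0.024 with overlapping sums, and the sodium channel subunit Scnn1g, at 0.23 in PpargΔ/Δ (limma adjusted p = 0.0499), was the 1 of 6 past the threshold. Principal cell markers of the collecting duct rose for 4 of 8 genes in PpargΔ/Δ (median 0.26), Aqp2, Aqp3, Aqp4 and Scnn1a, and for 0 of 8 in AZIP by limma (median 0.14, with 3 at an unadjusted p under 0.05). Their sums ranged from 13.24 to 13.31 in PpargΔ/Δ against 12.89 to 13.07, and from 12.87 to 13.12 in AZIP against 12.81 to 12.87. Interstitial markers rose for 2 of 7 genes in each line. The podocyte list had 1 of 6 higher in each line, the thick limb list 1 of 8 higher in PpargΔ/Δ, and the urothelial list 1 of 6 higher and 1 lower in PpargΔ/Δ. The other counts in AZIP for these 2 lists, and in both lines for intercalated cells (8 genes), endothelium (7) and macrophages (7), were 0 by limma, with 0 to 4 at an unadjusted p under 0.05. The part of these lists in the rise of S100g and in the falls of Kl and Vdr was not tested. Parathyroid markers (Pth and Chga measured), adrenal cortex (6) and fat (5) had 0 genes past the threshold by limma in either comparison, with 0, 1 and 1 at an unadjusted p under 0.05 in PpargΔ/Δ and 0, 1 and 0 in AZIP. All 5 fat markers were below 0 in both lines, with summed levels of 8.23 to 8.36 in PpargΔ/Δ against 8.37 to 8.59, and 8.40 to 8.48 in AZIP against 8.48 to 8.57. Of all 19938 genes, 10600 and 9755 were below 0 in PpargΔ/Δ and AZIP. The fat sums were low beside those of the nephron segments, and whether the samples differed in fat content was not tested.

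**Figure D5:**
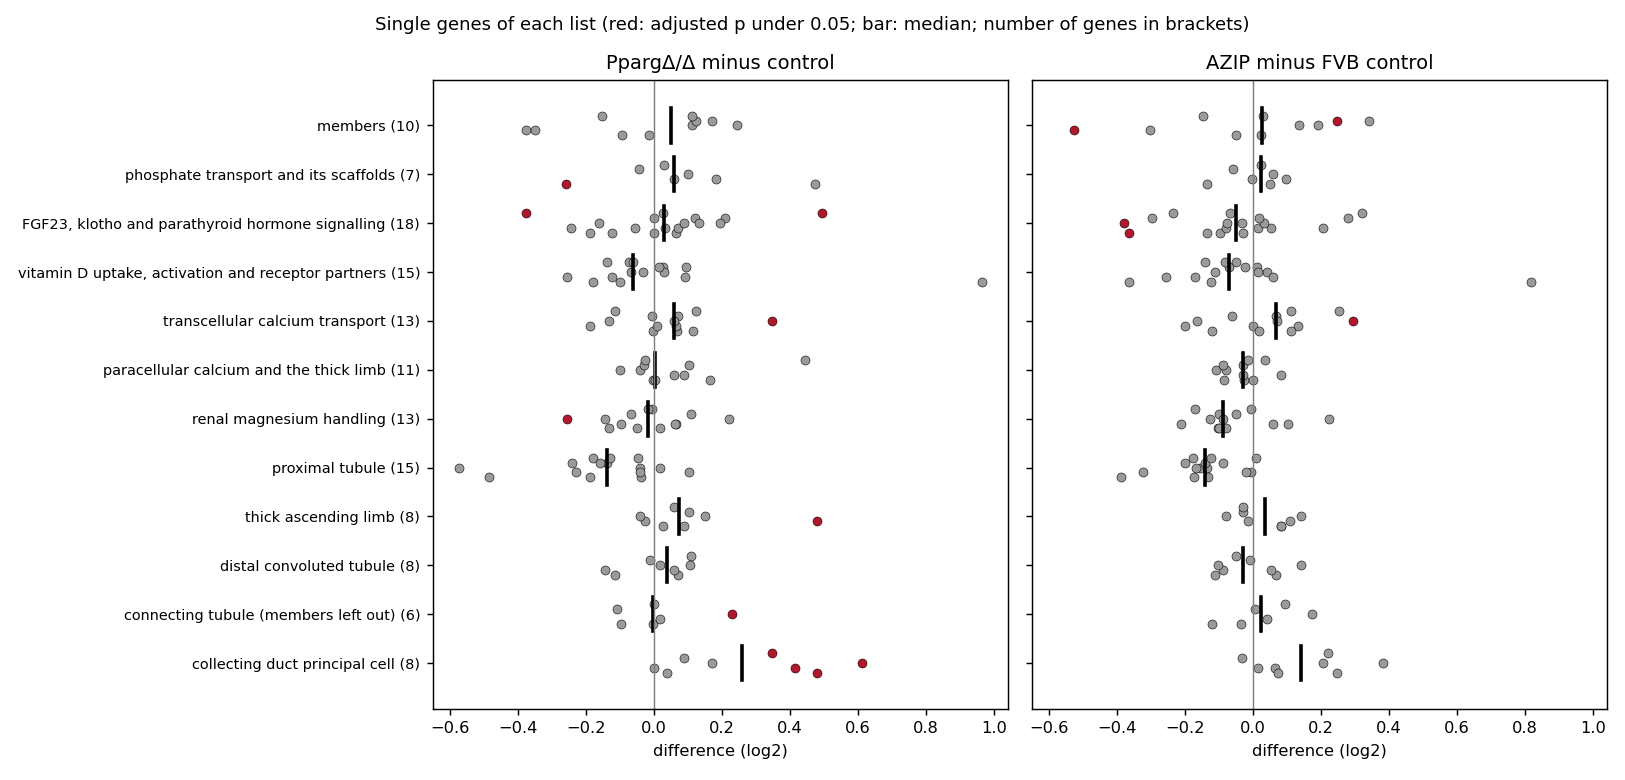
Log2 difference (x axis) of each gene of the member set, the 6 pathway lists and 5 nephron segment lists (rows, number of genes in brackets), for PpargΔ/Δ on the left and AZIP on the right; black bars are medians and red points passed an adjusted p under 0.05. The proximal tubule row lies mostly below 0 in both panels, and the distal convoluted and connecting tubule rows lie around 0.

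Members were also set against each other from pool to pool. With each group's mean removed, all 6 pairs among Trpv5, Trpv6, Calb1 and S100g were positively related over the 12 arrays, from r = 0.29 for Trpv6 with S100g to r = 0.843 for Calb1 with S100g. The 3 pairs among Slc34a3, Kl and Vdr had r = 0.256, -0.444 and 0.183 on the same measure. Slc34a1 with Slc34a3 had r = 0.858, the highest of the 45 pairs, and Fgfr1 with Casr r = 0.852. Slc34a3 with S100g had r = -0.743, the lowest. The arrays share these pools' overall make-up and the grouping of genes was made after their values were seen, so the values are descriptions.

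By the same measure with only the background means removed, which keeps the mutant-control difference, the gene most like each member among all tested had r between 0.91 and 0.983, each being the highest of all genes. For Slc34a3 it was the organic anion transporter Slc22a7 (r = 0.969), for Kl the metalloreductase gene Steap2 (r = 0.983), followed by Gcdh (r = 0.972) and the glucocorticoid receptor Nr3c1 (r = 0.97), and for Vdr Albfm1 (r = 0.976). S100g was closest to Syt13 (r = 0.981) and Slc38a1 (r = 0.973), Trpv5 to Itga11 (r = 0.965), Trpv6 to Myh9 (r = 0.954), Calb1 to Cltc (r = 0.936), Casr to Arf3 (r = 0.949), Slc34a1 to Arfgap2 (r = 0.955) and Fgfr1 to Ush1c (r = 0.91). Each is over 12 arrays and carries no test.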

How the data were processed

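Whole-kidney RNA, in pools of 3 mice, was amplified and labelled for 12 Affymetrix arrays, per the labels. The submitters' processing notes name RMA and Affymetrix Expression Console, without versions or settings. The log2 values that the authors deposited were taken as they stand. No genome build is named. Array medians ranged from 7.17 to 7.21, and arrays correlated with the others of their group at a mean r of 0.996 to 0.998. No counts exist for arrays, and their number limits the precision: the median SE of a difference was 0.0698.

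Of 35556 probe sets, 21789 carried 1 symbol, 1621 several and 12146 none. RefSeq gave the symbol of 21698 of them by Entrez number. Where several probe sets shared a gene (999 genes), that with the highest mean was kept, which left 19938 genes; each member had 1 probe set. One limma model (version 3.58.1, R 4.3.3) of the 4 group means took all 12 arrays, with 8 residual and 3.71 prior degrees of freedom, with Benjamini-Hochberg adjustment over all genes and a threshold of 0.05. Contrasts were PpargΔ/Δ minus control, AZIP minus FVB control, their difference and FVB control minus control; the mean of the 2 effects was added after the values were seen. The 6 pathway and 14 marker lists held 195 entries, of which 176 were measured. The members and lists were chosen with earlier results of these data known. Named were Pparg, the members, every pathway gene past the threshold in either mutant comparison, a fixed set of pathway genes, and the genes most like each member; marker genes named were past the threshold. Other values are given as ranges and counts.

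Alternatives were quantile normalization again, equal medians, 2 filters on dim genes (percentiles 25 and 50), averaged probe sets of a gene, every probe set as a test, a fit of just 2 groups, array weights, robust or trended variance, the replicate block, each array left out, and other thresholds. On simulated data for PpargΔ/Δ minus control over 19938 genes, the test found 0% of changes of 0.15, 52% of 0.3, 86% of 0.5 and 98% of 1, with 6 calls among 19738 unchanged genes. Only 50 genes were changed at each of these sizes, while 1055 genes were called in the data. The adjusted p depends on how many genes change, so these shares need not hold for the real comparison. Promoter sequences came from RefSeq (GRCm38.p6).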

Additional observations from a re-analysis of the deposited data

How the results depend on the processing

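The calls on single members rest near the threshold. On simulated data for PpargΔ/Δ minus control the test found 0% of changes of 0.15 and 52% of changes of 0.3. Those shares come from 50 changed genes per size and need not hold for the data, where 1055 genes were called. In PpargΔ/Δ minus control 0 members were called; the count was 1 with quantile normalization again, 2 with equal medians, 2 without genes under percentile 25, 2 without those under percentile 50, 2 with a variance trend, 2 with array weights and 3 at an adjusted p under 0.10 (Kl, Vdr and Slc34a3), and ranged from 0 to 2 with an array left out. In AZIP minus FVB control 2 were called; the count was 3 without genes under percentile 50, with a variance trend and at an adjusted p under 0.10 (each time with Kl), 3 with array weights (with Vdr), 1 with equal medians, 0 with all probe sets tested, 0 with only the 2 groups compared, 0 with at least 1.5-fold required and 0 with the replicate block, and ranged from 0 to 2 with an array left out. For FVB control minus control it was 4 with array weights and 1 with at least 1.5-fold (2 as reported; 2 to 3 with an array left out), and for the mean of the 2 effects 0 with at least 1.5-fold (4 as reported; 4 to 6). For the difference of the 2 effects it was 0 in each alternative.

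Replicate numbers are shared between groups, but same-numbered arrays did not deviate together throughout (r = 0.184, 0.179 and 0.009 in the mixed background, -0.036, -0.103 and -0.01 in FVB), so they were not taken as pairs. With the replicate block the AZIP values of Slc34a3 and S100g had limma adjusted p = 0.0583 and 0.054, and 667 and 313 genes were called in PpargΔ/Δ and AZIP, against 1055 and 485. FVB control minus control was not fitted with the block. All genes called ranged from 181 to 1938 in PpargΔ/Δ, from 62 to 1035 in AZIP, from 296 to 2219 between the controls (1439 as reported), from 0 to 9 for the difference (4) and from 126 to 3691 for the mean (2509). Equal medians shift PpargΔ/Δ by 0.0187 and AZIP by 0.0228.

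Of 1611 single-gene values under alternatives, 1451 kept their direction and side of the threshold, 94 lost it, 47 gained it and 19 changed sign, each of these 19 uncalled. With an array left out, Slc34a1 in PpargΔ/Δ ranged from -0.028 to 0.012, and in AZIP Fgfr1 ranged from -0.017 and Casr from -0.0032 (both without FVB control 3) to 0.048 and 0.064. For the difference of the 2 effects Kl was 0.00033 with equal medians and ranged from -0.023 to 0.019 with an array left out. There Trpv5 ranged from -0.017 to 0.16, Vdr from -0.16 to 0.037, Calb1 from -0.086 to 0.030, Trpv6 from -0.34 to 0.022 and Slc34a3 from -0.012 to 0.28. Trpv6, Lctl and Egr1 are below percentile 50 and have no value under that filter.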
